A study of Rattus norvegicus with 372 samples.

Results

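Ketoconazole at 15 µM and simvastatin at 60 µM were compared in primary rat hepatocytes, because both drugs block cholesterol synthesis, ketoconazole at a late step and simvastatin at an early step. The wells were chosen by their labelled chemical and concentration, and they were 6 wells of each drug, 12 of the 372 libraries of the series, all from its whole-transcriptome (WT) assay. TempO-Seq, the assay used, ligates pairs of detector oligos on a transcript and counts the reads of each ligated probe. Hepatocytes of male Wistar rats were kept in collagen sandwich and exposed for 24 h in medium with 0.5% DMSO, and vehicle wells received the DMSO without a drug. The medium of all groups also held dexamethasone, insulin and EGF. Each batch came from 1 rat, so the 3 wells of a drug within a batch are technical replicates, their p-values measure the spread between wells, and only the 2 rats replicate the biology. The libraries of each batch were also made and sequenced on their own, so rat and library run cannot be told apart. Batch 1 had simvastatin and its 3 vehicle wells on plate 4 and ketoconazole on plate 5, which held no vehicle well. Batch 2 had simvastatin with 3 vehicle wells on plate 2 and ketoconazole with 3 others on plate 3. Thus plate and drug cannot be told apart in the direct comparison, and the change against vehicle of the same plate was compared as well where the plates allowed it. The concentrations also differ, each being the higher of 2 levels of its drug. WT libraries held 5231801 to 8631993 reads per well for the 2 drugs and 5492941 to 8264980 for vehicle.

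The mevalonate pathway turns acetyl-CoA through HMG-CoA into isoprenoids, and squalene made from these is closed to lanosterol and then trimmed to cholesterol. Simvastatin blocks this path near its start and so withholds both sterols and the isoprenoids that anchor small GTPases to membranes. Ketoconazole, an azole antifungal, blocks lanosterol demethylase (Cyp51) and other cytochrome P450 enzymes. In the liver, a fall of sterol in the endoplasmic reticulum lets Scap carry SREBP2, the product of Srebf2, to the Golgi, and the freed factor switches on the genes of nearly the whole pathway. Insig1 and Insig2 hold Scap back when sterol is plentiful. The nuclear receptors CAR, PXR and PPAR alpha switch on drug-metabolizing and fatty acid-oxidizing enzymes in the same cells.

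Promoters are shown for 3 sterol genes that both drugs raised and for 2 genes among those with the largest differences between the drugs, as the 250 bases before the start of the gene in RefSeq, rat assembly GRCr8, with Hmgcs1 at chr2:53382054-53382303 on the plus strand, Idi1 at chr17:66547525-66547774 on the minus strand, Fdps at chr2:176804817-176805066 on the minus strand, Cyp3a2 at chr12:14343858-14344107 on the minus strand and Fabp1 at chr4:104749090-104749339 on the plus strand. Capitals mark CCAAT, the box bound by NF-Y, an SREBP partner, in the first 3 sequences, where ATTGG is its reading on the opposite strand. In Fabp1, capitals mark TGACCTNTG, a piece of the direct repeat that PPAR alpha binds, 77 bases before the start, and this gene's CCAAT match at 201 bases is left in lower case.
Hmgcs1: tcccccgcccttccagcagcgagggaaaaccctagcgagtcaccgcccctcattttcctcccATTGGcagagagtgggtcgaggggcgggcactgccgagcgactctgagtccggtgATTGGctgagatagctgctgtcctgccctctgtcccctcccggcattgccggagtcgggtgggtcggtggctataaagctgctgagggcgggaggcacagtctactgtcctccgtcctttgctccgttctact
Idi1: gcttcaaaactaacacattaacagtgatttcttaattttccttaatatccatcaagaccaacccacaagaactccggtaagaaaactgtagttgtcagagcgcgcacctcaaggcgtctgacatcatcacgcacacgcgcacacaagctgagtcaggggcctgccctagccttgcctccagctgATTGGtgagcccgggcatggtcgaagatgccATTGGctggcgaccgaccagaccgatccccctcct
Fdps: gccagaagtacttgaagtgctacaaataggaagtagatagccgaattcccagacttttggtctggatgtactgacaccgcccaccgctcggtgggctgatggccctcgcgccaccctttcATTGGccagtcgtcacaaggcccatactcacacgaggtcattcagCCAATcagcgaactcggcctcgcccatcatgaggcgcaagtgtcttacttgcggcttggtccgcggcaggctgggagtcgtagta
Cyp3a2: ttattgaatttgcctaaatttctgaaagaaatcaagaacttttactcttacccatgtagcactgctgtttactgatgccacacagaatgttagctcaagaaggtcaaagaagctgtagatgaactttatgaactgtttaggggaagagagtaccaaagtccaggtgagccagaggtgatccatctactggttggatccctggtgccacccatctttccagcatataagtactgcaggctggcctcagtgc
Fabp1: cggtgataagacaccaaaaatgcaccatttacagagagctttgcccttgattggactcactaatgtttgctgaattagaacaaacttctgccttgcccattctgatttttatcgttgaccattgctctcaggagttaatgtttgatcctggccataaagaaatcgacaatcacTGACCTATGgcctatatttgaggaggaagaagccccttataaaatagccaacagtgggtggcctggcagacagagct
Of the 19 tested genes of the mevalonate, squalene and sterol steps, 15 had a promoter sequence, and CCAAT was found on either strand in 11 of them (73.3%), compared with 34% of all 33469 promoters. In the lists a gene counted where any promoter entry of it matched, while the 33469 promoters were counted entry by entry, so the shares are not fully alike. TCACNCCAC, the core of the sterol regulatory element, was in 0 of the 15 genes and in 0.974% of all promoters. TGACCTNTG was in 1.31% of all promoters and in 1 of the 23 genes of the PPAR alpha list that had a promoter sequence (Fabp1). CCAAT was in 10 of those 23 (43.5%). The motifs were picked with the expression values known, and a match describes letters in the window only.

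Across the transcriptome, the drugs differed at many genes. A probe was called where the adjusted p of edgeR's quasi-likelihood test was under 0.05, and 10689 probes were tested. Of these, 3472 were called between ketoconazole and simvastatin in batch 1 (1685 higher and 1787 lower with ketoconazole) and 4166 in batch 2 (2104 and 2062). In both batches and with the same sign, 1094 were higher (10.2%) and 1318 lower (12.3%), and 10 were called with opposite signs. Against vehicle, ketoconazole raised 11.7% and lowered 13.6% of the probes in both batches, and simvastatin raised 4.18% and lowered 3.39%. Counts of list members below are to be read against these shares of all probes. All changes below are log2 fold changes (L2FC), ± SE where an error is given, and all levels are TMM-normalized CPM, the counts of a probe in a well scaled to the depth of its library. Levels of different genes are not compared, since probes differ in yield.

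Most genes of cholesterol synthesis rose with both drugs. Between the drugs, 13 of the 19 probes tested were not called in both batches with 1 sign, and neither were 8277 of all 10689 probes. The lists held 9 genes of the mevalonate and 14 of the squalene and sterol steps, of which 8 and 12 had a probe and 8 and 11 were tested, leaving out Pmvk, Tm7sf2, Ebp and Sc5d. Of these 19 probes, ketoconazole raised 15 in both batches and simvastatin 18, the 15 being among the 18. The median L2FC of the 19 against vehicle was 1.58 in batch 1 and 2.34 in batch 2 with ketoconazole, and 1.72 and 2.27 with simvastatin, while over all probes tested it lay between -0.02 and 0.01 in these comparisons. Between the drugs, the median difference was -0.04 in batch 1 and 0.07 in batch 2, compared with 0.02 in each batch over all probes. In both batches 4 of the 19 were higher with ketoconazole and 2 lower, against 10.2% and 12.3% of all probes. No member differed by more than 1.19 in batch 1 or 1.05 in batch 2. In batch 1 both drugs are set against the same 3 vehicle wells.

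**Figure D1:**
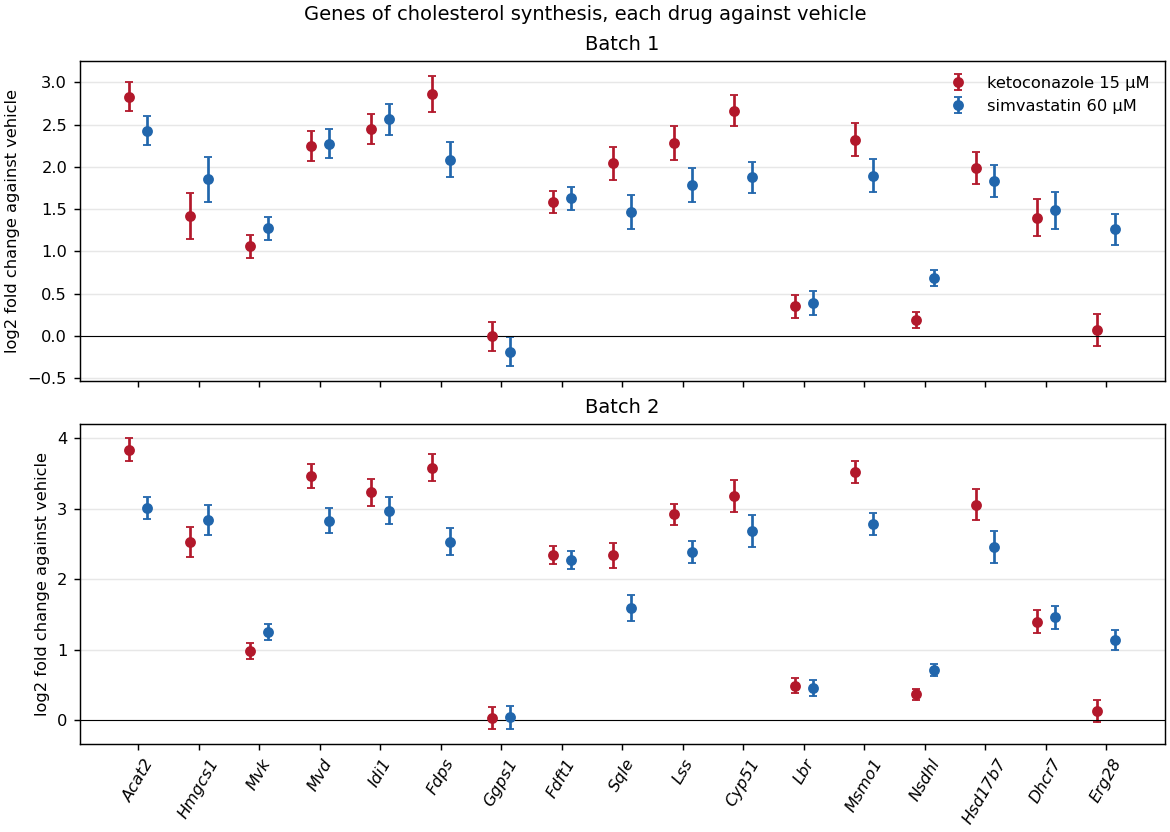
Log2 fold change against vehicle (vertical axis) of 17 tested genes of cholesterol synthesis, in pathway order, with ketoconazole (red) and simvastatin (blue). Points are fitted values, bars are SE, and each panel is a batch. No gene shown differs between the drugs by more than 1.19 in batch 1 or 1.05 in batch 2, and at Erg28 ketoconazole is at 0.07 and 0.13 and simvastatin at 1.26 and 1.14.

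Among the mevalonate genes, Hmgcs1, which makes HMG-CoA, rose with both drugs. In batch 1, Hmgcs1 stood at 16.6, 13.5 and 15.6 CPM with ketoconazole, 22.5, 18.6 and 20.9 with simvastatin and 5.00, 4.36 and 7.80 with vehicle. For Hmgcs1, batch 2 gave 17.5, 17.9 and 20.8 CPM with ketoconazole, 21.7, 20.1 and 27.9 with simvastatin and 2.20 to 4.32 (median 3.23) with vehicle. Wells of both drugs lay above all vehicle wells, and ketoconazole wells lay below those of simvastatin in batch 1 and overlapped them in batch 2. The difference between the drugs, -0.44 (95% confidence interval -0.93 to 0.05) in batch 1 and -0.31 (-0.76 to 0.14) in batch 2, did not pass the test (adjusted p = 0.168 and 0.286). With only the wells of the 2 drugs in the fit, Hmgcs1 was called in batch 1 (-0.46, adjusted p = 0.0138).

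Idi1, which isomerizes isopentenyl diphosphate, gave intervals of -0.45 to 0.21 in batch 1 and -0.16 to 0.68 in batch 2 around differences of -0.12 and 0.26. The 2 members called in both batches were Acat2, which makes acetoacetyl-CoA in the cytosol, and Fdps, which makes farnesyl diphosphate, the branch point to the isoprenoids. In batch 1, Fdps stood at 594, 522 and 428 CPM with ketoconazole, 334, 279 and 288 with simvastatin and 75.8, 63.9 and 72.2 with vehicle. For Fdps, batch 2 gave 498, 740.0 and 514 CPM with ketoconazole, 270.1, 299 and 277 with simvastatin and 39.8 to 61.2 (median 47.9) with vehicle. Every ketoconazole well was above every simvastatin well, with a difference of 0.78 ± 0.20 in batch 1 and 1.05 ± 0.23 in batch 2 (adjusted p = 0.00135 and 9.57e-05). Acat2 differed by 0.40 ± 0.16 in batch 1 and 0.82 ± 0.18 in batch 2 (adjusted p = 0.04 and 8.42e-05). Mvd, mevalonate diphosphate decarboxylase, differed by -0.03 in batch 1 and by 0.64 in batch 2, where it was called (adjusted p = 0.905 and 0.00354). Mvk, mevalonate kinase, was raised by both drugs, and its ketoconazole wells lay below those of simvastatin in both batches, at -0.22 in batch 1 and -0.27 in batch 2, with no call (adjusted p = 0.208 and 0.103). Ggps1, which makes the geranylgeranyl diphosphate that anchors small GTPases, was not called with either drug (-0.18 in batch 1 and 0.05 in batch 2 with simvastatin). With wells left out 1 at a time, the call of Acat2 in batch 1 was lost without ketoconazole well 1 or 2 or simvastatin well 2 or 3 (adjusted p = 0.0805 to 0.172), and also with RLE scaling (adjusted p = 0.0516) and with no filter on low counts (adjusted p = 0.0751).

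Past the branch point, Cyp51, the target of ketoconazole, was high with both drugs. In batch 1, Cyp51 stood at 619.7, 657 and 510.4 CPM with ketoconazole, 378, 324 and 331 with simvastatin and 90.8, 100.7 and 90.2 with vehicle. For Cyp51, batch 2 gave 254, 254 and 247 CPM with ketoconazole, 132, 191 and 213 with simvastatin and 20.5 to 35.3 (median 26.5) with vehicle. Every ketoconazole well exceeded every simvastatin well, yet the difference of 0.79 ± 0.18 passed the test in batch 1 (adjusted p = 0.000244) and that of 0.49 ± 0.26 did not in batch 2 (adjusted p = 0.124). With only the wells of the 2 drugs in the fit, Cyp51 was called in batch 2 too (0.48, adjusted p = 0.0128). Sqle, squalene epoxidase, and Lss, lanosterol synthase, were higher with ketoconazole in both batches, Sqle by 0.57 in batch 1 and 0.75 in batch 2 (adjusted p = 0.0155 and 0.00283) and Lss by 0.49 in batch 1 and 0.53 in batch 2 (adjusted p = 0.0298 and 0.00743). Fdft1, squalene synthase, was nearly level between the drugs. In batch 1, Fdft1 stood at 296, 314 and 259 CPM with ketoconazole, 338, 278 and 279.5 with simvastatin and 102, 99.3 and 88.9 with vehicle. For Fdft1, batch 2 gave 236, 256 and 234 CPM with ketoconazole, 246, 207 and 239 with simvastatin and 37.4 to 51.9 (median 49.3) with vehicle. The wells of the drugs overlapped in each batch, and the intervals of the difference were -0.30 to 0.22 and -0.22 to 0.36. The call of Sqle in batch 1 was lost without ketoconazole well 2 or simvastatin well 2 (adjusted p = 0.0627 to 0.101). The call of Sqle in batch 2 was lost without ketoconazole well 2 (adjusted p = 0.0589). The call of Lss in batch 1 was lost without ketoconazole well 1 or 2 or simvastatin well 2 or 3 (adjusted p = 0.0702 to 0.0924). The call of Lss in batch 2 was lost without simvastatin well 2 (adjusted p = 0.0518). In batch 1 the plate of ketoconazole held its 0.6 µM wells and no vehicle. With those wells as its control in place of vehicle, the difference of Cyp51 in batch 1 went from 0.79 to 0.000844 and was not called (adjusted p = 0.999), and Acat2 (-0.10), Sqle (-0.046), Fdps (0.09), Lss (0.16) and Insig1 (0.37) were not called either. Idi1 (-0.93, adjusted p = 0.00338) and Fdft1 (-0.55, adjusted p = 0.0274) were then called lower and Ggps1 (0.72, adjusted p = 0.0334) higher with ketoconazole. Among genes described below, Srebf1 (0.52), Nr1h3 (-0.58), Scarb1 (-0.52), Fasn (0.21), Elovl6 (0.95), Abcb4 (0.92), Cyp1b1 (1.48), Sesn2 (0.58), Cd68 (0.86) and Rgs5 (-1.47) also lost their call in batch 1 (adjusted p = 0.0958 to 0.405). The 0.6 µM wells had themselves changed Idi1 by 0.81 and Cyp51 by 0.79 from vehicle.

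Later steps split. Msmo1, the sterol methyl oxidase, and Hsd17b7, which reduces the ketone after demethylation, were called higher with ketoconazole in batch 2 only, by 0.74 and 0.60, with 0.43 and 0.15 in batch 1. Msmo1 was called in batch 1 too with only the wells of the 2 drugs in the fit (0.40, adjusted p = 0.00492) and with DESeq2 (0.41, adjusted p = 0.0448). Dhcr7, the last reductase of one branch, and Lbr, a sterol reductase of the nuclear envelope, differed by -0.08 in batch 1 and -0.06 in batch 2 and by -0.04 in batch 1 and 0.03 in batch 2, with no call. Nsdhl, which acts beside Msmo1, and Erg28, a scaffold of that complex, were lower with ketoconazole. In batch 1, Erg28 stood at 40.7, 35.0 and 34.1 CPM with ketoconazole, 92.3, 75.2 and 82.6 with simvastatin and 39.2, 36.1 and 28.9 with vehicle. For Erg28, batch 2 gave 36.1, 31.0 and 38.5 CPM with ketoconazole, 72.8, 65.5 and 74.2 with simvastatin and 27.3 to 37.8 (median 32.8) with vehicle. Ketoconazole wells overlapped vehicle in both batches and all lay below simvastatin, with a difference of -1.19 ± 0.19 in batch 1 and -1.01 ± 0.17 in batch 2 (adjusted p = 4.09e-07 and 1.19e-06). Nsdhl gave a difference of -0.50 in batch 1 and -0.34 in batch 2 (adjusted p = 2.27e-05 and 0.00214). The call of Hsd17b7 in batch 2 was lost without ketoconazole well 2 or simvastatin well 1 or 2 (adjusted p = 0.0795 to 0.214).

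Of the 13 probes tested for SREBP2 regulators and sterol uptake, 3 were higher and 3 lower with ketoconazole in both batches. The shares over all probes were 10.2% and 12.3%. Insig1 was higher and Insig2 lower with ketoconazole. In batch 1, Insig1 stood at 4408, 4971 and 3965 CPM with ketoconazole, 3214, 2327 and 2559 with simvastatin and 603, 696 and 688 with vehicle. For Insig1, batch 2 gave 4267, 5198 and 4638 CPM with ketoconazole, 2139, 2457 and 2247 with simvastatin and 561 to 995 (median 657) with vehicle. Both drugs raised Insig1, an SREBP2 target, and ketoconazole exceeded simvastatin by 0.72 ± 0.12 in batch 1 and 1.04 ± 0.18 in batch 2 (adjusted p = 1.64e-06 and 9.8e-07). In batch 1, Insig2 stood at 16.9, 12.7 and 10.5 CPM with ketoconazole, 79.6, 70.3 and 64.3 with simvastatin and 23.5, 24.4 and 22.6 with vehicle. For Insig2, batch 2 gave 17.9, 15.6 and 21.3 CPM with ketoconazole, 68.3, 68.2 and 67.0 with simvastatin and 24.0 to 35.7 (median 28.1) with vehicle. Insig2 fell below vehicle with ketoconazole (-0.80 in batch 1 and -0.69 in batch 2, adjusted p = 0.000542 and 0.000285) and rose with simvastatin (1.60 in batch 1 and 1.20 in batch 2, adjusted p = 3.5e-11 and 4.76e-10), so that no wells of the drugs overlapped.

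Npc2, which hands cholesterol out of lysosomes, was higher with ketoconazole by 0.86 ± 0.16 in batch 1 and 0.78 ± 0.13 in batch 2 (adjusted p = 1.2e-05 and 1.58e-06), and its partner Npc1 by 0.31 without a call in batch 1 and 0.85 with one in batch 2 (adjusted p = 0.067 and 9.67e-10). Srebf1, which drives fatty acid synthesis, was higher with ketoconazole by 0.64 ± 0.17 in batch 1 and 1.23 ± 0.14 in batch 2 (adjusted p = 0.00152 and 3.51e-11). Against vehicle, Srebf1 gave -0.36 in batch 1 and 0.99 in batch 2 with ketoconazole and -1.0 in batch 1 and -0.24 in batch 2 with simvastatin. Srebf2 rose with both drugs (0.41 in batch 1 and 0.65 in batch 2 with ketoconazole, 0.61 in batch 1 and 0.72 in batch 2 with simvastatin) and was not called between them (-0.20 in batch 1 and -0.07 in batch 2). Stard4 was called between the drugs in batch 2 (0.46) and Lpin1 in batch 1 (-0.74), and Scap, Tmem97 and Mylip in neither. Npc1l1 was under the filter on low counts. The call of Stard4 in batch 2 was lost without ketoconazole well 2 or simvastatin well 1 or 2 (adjusted p = 0.0608 to 0.273).

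At the low concentrations, 0.6 µM ketoconazole and 2.4 µM simvastatin, the 2 values are given side by side, since the doses differ. Hmgcs1 changed by 0.35 in batch 1 and 0.55 in batch 2 with ketoconazole, with no call, and by 1.67 and 2.91 with simvastatin. Cyp51 changed by 0.79 and 1.01 with ketoconazole and by 1.43 and 2.80 with simvastatin, all called. Insig2 gave -0.01 to 0.06 at both low concentrations, with no call.

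Enzymes of drug metabolism differed widely between the drugs. Of 14 probes tested for CAR and PXR targets, 11 were lower with ketoconazole than with simvastatin in both batches and 0 higher (median -1.75 and -2.02). Simvastatin raised 7 of them against vehicle and lowered 0, and ketoconazole raised 3 and lowered 3. Cyp3a2, a PXR target and a main drug-oxidizing enzyme, shows the pattern. In batch 1, Cyp3a2 stood at 34.2, 30.1 and 36.5 CPM with ketoconazole, 1013, 1156 and 867 with simvastatin and 12.6, 11.3 and 11.7 with vehicle. For Cyp3a2, batch 2 gave 26.0, 25.8 and 27.4 CPM with ketoconazole, 981, 1061 and 1024 with simvastatin and 7.15 to 9.36 (median 8.89) with vehicle. All wells of both drugs lay above vehicle, and simvastatin lay far above ketoconazole, with a difference of -4.91 ± 0.20 in batch 1 and -5.27 ± 0.20 in batch 2 (adjusted p = 2.45e-32 and 6.54e-35). The probe of Cyp3a1 gave -4.58 in batch 1 and -5.18 in batch 2 between the drugs, with 2.36 in batch 1 and 2.22 in batch 2 for ketoconazole and 6.94 in batch 1 and 7.4 in batch 2 for simvastatin against vehicle. The Cyp3a genes are near-identical copies, so reads may be shared among them, and the names of these probes were taken from the ST table by their probe numbers. At 0.6 µM, ketoconazole had already changed Cyp3a2 by 1.42 and 0.84, both called, and 2.4 µM simvastatin gave 0.61 and -0.19, neither called.

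Cyp2b2, the classic CAR target, was higher with simvastatin. In batch 1, Cyp2b2 stood at 0.319, 0.832 and 1.32 CPM with ketoconazole, 59.7, 36.0 and 49.5 with simvastatin and 3.49, 5.57 and 1.95 with vehicle. For Cyp2b2, batch 2 gave 0.83, 1.24 and 1.22 CPM with ketoconazole, 103, 57.9 and 98.6 with simvastatin and 0.857 to 3.43 (median 2.00) with vehicle. Simvastatin wells were above every vehicle well (3.73 in batch 1 and 5.35 in batch 2), while ketoconazole gave -2.16 in batch 1 and -0.93 in batch 2 (adjusted p = 0.00265 and 0.146). The drugs differed by -5.89 ± 0.43 in batch 1 and -6.28 ± 0.42 in batch 2 (adjusted p = 5.06e-19 and 4.9e-22). Of 13 probes for constitutive CYP2 enzymes, 11 were lower with ketoconazole and 0 higher (median -2.78 and -2.76). Cyp2c22, a retinoid-oxidizing enzyme, rose with simvastatin (3.47 in batch 1 and 4.03 in batch 2) and was not called with ketoconazole (0.35 in batch 1 and -0.05 in batch 2), and the 3 probes of Cyp2d1, which has near-identical copies, differed by -4.34 to -3.15 over both batches. Heme is the cofactor of these enzymes, and 3 of 8 probes of its synthesis were lower with ketoconazole, where 12.3% of all probes were. They were led by Alas1, the rate-limiting enzyme, with -1.51 ± 0.20 in batch 1 and -1.25 ± 0.18 in batch 2 (adjusted p = 2.95e-09 and 1.1e-08). The other 2 probes were Urod, uroporphyrinogen decarboxylase, and Cpox, coproporphyrinogen oxidase, and both lost their call in batch 2 without ketoconazole well 2 (adjusted p = 0.199 and 0.0558) or simvastatin well 1 (adjusted p = 0.0983 and 0.0679), which leaves Alas1 alone. Alas1 rose with simvastatin (1.54 in batch 1 and 1.03 in batch 2) and was not called with ketoconazole (0.03 in batch 1 and -0.22 in batch 2).

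**Figure D2:**
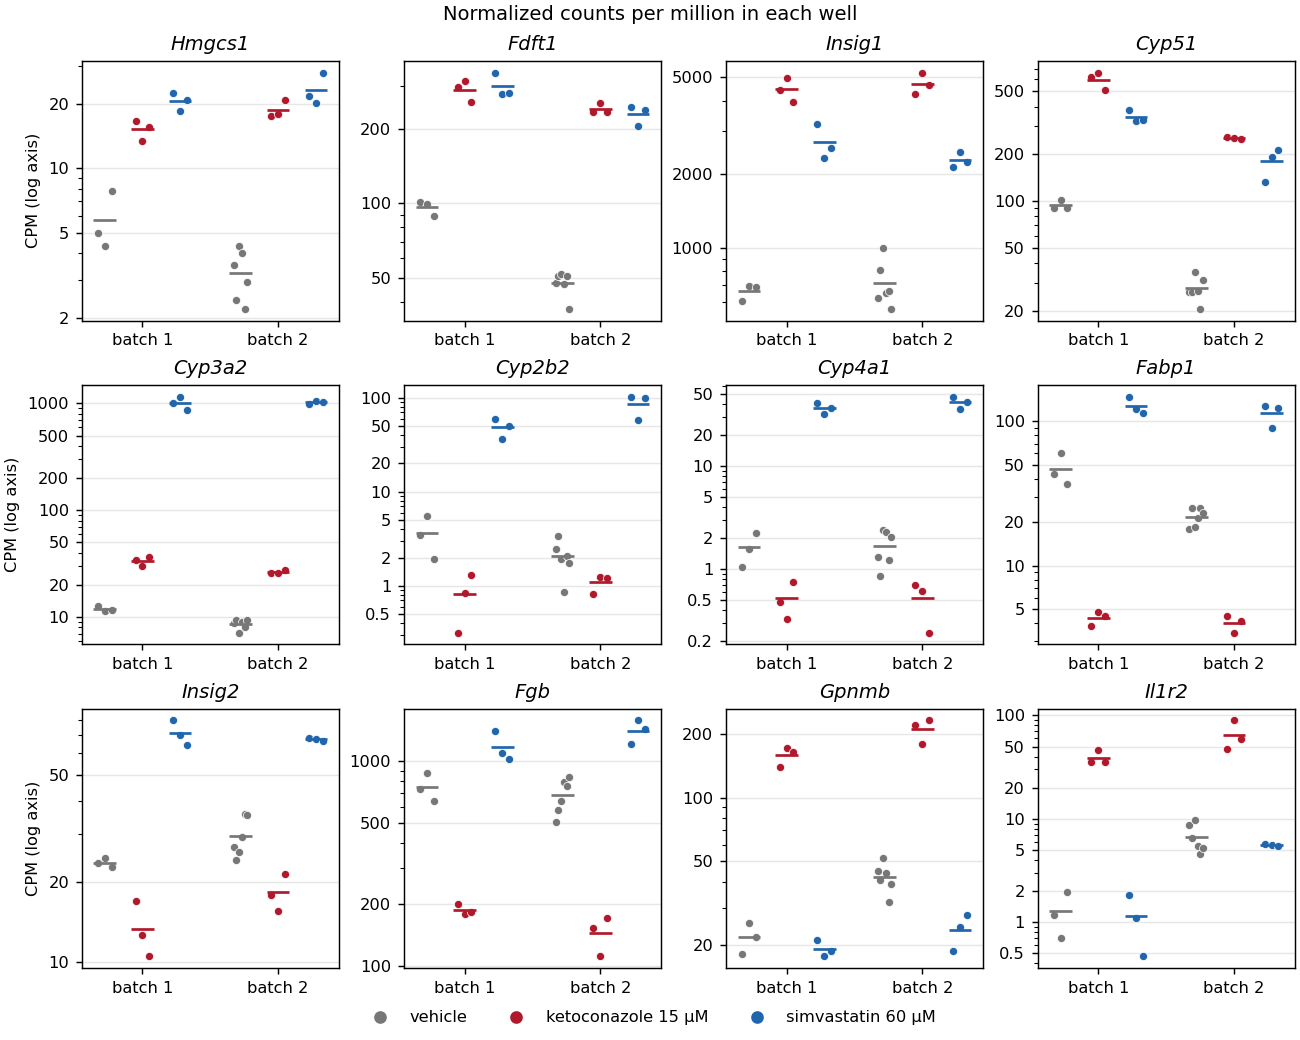
CPM on a log axis of 12 genes in every well, with vehicle (grey), ketoconazole 15 µM (red) and simvastatin 60 µM (blue) side by side in each batch. Lines are group means. Hmgcs1 and Fdft1 rise with both drugs, Cyp3a2 rises far more with simvastatin, Cyp4a1, Cyp2b2, Fabp1, Insig2 and Fgb lie below vehicle with ketoconazole and above it with simvastatin in group means, and Gpnmb and Il1r2 are above vehicle with ketoconazole in both batches.

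PPAR alpha targets, the enzymes and carriers of fatty acid oxidation, were higher with simvastatin. Of 24 probes tested, 20 were lower with ketoconazole than with simvastatin in both batches and 0 higher (median -1.92 and -1.84), with 21 raised and 0 lowered by simvastatin against vehicle, and 1 raised and 8 lowered by ketoconazole. Cyp4a1 oxidizes the far end of fatty acids. In batch 1, Cyp4a1 stood at 0.479, 0.333 and 0.753 CPM with ketoconazole, 41.4, 32.1 and 37.1 with simvastatin and 1.05, 1.57 and 2.27 with vehicle. For Cyp4a1, batch 2 gave 0.711, 0.618 and 0.244 CPM with ketoconazole, 47.3, 36.2 and 42.1 with simvastatin and 0.858 to 2.38 (median 1.70) with vehicle. Its WT wells did not overlap between any of the 3 groups in either batch, and the drugs differed by -6.12 ± 0.33 in batch 1 and -6.27 ± 0.54 in batch 2 (adjusted p = 1.13e-25 and 1.35e-16). Of the probes of Cyp4a2, the 2 named for the size of their change differed by -7.22 in batch 1 and -6.06 in batch 2 and by -5.74 in batch 1 and -5.73 in batch 2. Another probe of Cyp4a2 is not given, and Cyp4a genes too share near-identical stretches. Fabp1 is the fatty acid carrier whose promoter is shown above. In batch 1, Fabp1 stood at 3.83, 4.83 and 4.52 CPM with ketoconazole, 148, 122 and 115 with simvastatin and 42.9, 60.3 and 36.9 with vehicle. For Fabp1, batch 2 gave 4.5, 3.46 and 4.14 CPM with ketoconazole, 127, 90.5 and 123 with simvastatin and 17.9 to 25.3 (median 22.4) with vehicle. It fell with ketoconazole (-3.40 in batch 1 and -2.44 in batch 2, adjusted p = 1.08e-16 and 2.83e-11) and rose with simvastatin (1.46 in batch 1 and 2.37 in batch 2, adjusted p = 1.21e-07 and 3.06e-16). In batch 2 by ST, described below, the ketoconazole wells of Cyp4a1 and Fabp1 overlapped vehicle.

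Genes of fatty acid synthesis were higher with ketoconazole in part. Of 12 probes tested, 7 were higher with ketoconazole in both batches and 0 lower (median 0.36 and 0.90). Against vehicle, ketoconazole raised 9 and lowered 1, and simvastatin raised 6 and lowered 0. Fasn, fatty acid synthase, differed by 0.63 ± 0.11 in batch 1 and 1.55 ± 0.16 in batch 2 (adjusted p = 7.73e-06 and 1.45e-13), and Fads1, a desaturase and SREBP1 target, by 1.17 ± 0.16 in batch 1 and 1.69 ± 0.22 in batch 2 (adjusted p = 8.77e-09 and 1.86e-09). In batch 1, Fads1 stood at 71.5, 78.0 and 58.8 CPM with ketoconazole, 34.2, 27.7 and 31.0 with simvastatin and 14.5, 13.6 and 11.5 with vehicle. For Fads1, batch 2 gave 74.8, 73.6 and 88.1 CPM with ketoconazole, 28.2, 19.7 and 25.2 with simvastatin and 8.14 to 11.4 (median 10.3) with vehicle. The wells lay in the order vehicle, simvastatin, ketoconazole in both batches, with no overlap. Acacb and Elovl6 differed by 1.14 in batch 1 and 1.5 in batch 2 and by 1.07 in batch 1 and 1.08 in batch 2. Of 8 probes for sterol esterification and efflux, 3 were lower with ketoconazole, against 12.3% of all probes. They were Nr1h3, the sterol sensor LXR alpha (-0.85 in batch 1 and -0.74 in batch 2), Apoe (-0.60 in batch 1 and -0.50 in batch 2) and Scarb1, the HDL receptor (-0.57 in batch 1 and -0.51 in batch 2). The call of Acacb in batch 1 was lost without simvastatin well 2 (adjusted p = 0.0862). The call of Elovl6 in batch 1 was lost without ketoconazole well 2 (adjusted p = 0.0752). The call of Elovl6 in batch 2 was lost without ketoconazole well 2 or simvastatin well 2 or 3 (adjusted p = 0.0636 to 0.116). The call of Nr1h3 in batch 2 was lost without ketoconazole well 2 (adjusted p = 0.0553). The call of Scarb1 in batch 2 was lost without ketoconazole well 1 (adjusted p = 0.0535).

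Genes that mark the hepatocyte were lower with ketoconazole in 17 of 19 probes tested for secreted proteins and identity factors (median -1.45 and -1.58), and 0 were higher. Their summed level was 24710 to 27930 CPM in the ketoconazole wells, 56540 to 75550 with simvastatin and 52360 to 65450 with vehicle. Ketoconazole lowered 14 and raised 0 against vehicle, and simvastatin raised 6 and lowered 0. Fgb, the fibrinogen beta chain, differed by -2.65 ± 0.27 in batch 1 and -3.29 ± 0.22 in batch 2 (adjusted p = 1.18e-12 and 1.35e-21). In batch 1, Fgb stood at 201, 179 and 184 CPM with ketoconazole, 1410, 1094 and 1027 with simvastatin and 728, 874 and 642 with vehicle. For Fgb, batch 2 gave 153, 111 and 171 CPM with ketoconazole, 1221, 1584 and 1434 with simvastatin and 506 to 834 (median 697) with vehicle. The ketoconazole wells were below vehicle in both batches. Otc of the urea cycle differed by -2.55 in batch 1 and -2.80 in batch 2 and Pck1 of gluconeogenesis by -2.58 in batch 1 and -3.69 in batch 2. G6pc, which releases glucose, had 0 counts in the 3 ketoconazole wells of batch 1 and 105 in those of simvastatin, at least 29.4-fold higher with simvastatin against a floor of 3 counts over the group. In lysates of whole wells, fewer hepatocytes and less RNA per hepatocyte cannot be told apart.

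Markers of other cell types were low. The 11 Kupffer probes summed in batch 1 to 39.8 to 47.3 CPM in ketoconazole wells, 40.2 to 44.5 with simvastatin and 44.8 to 52.6 with vehicle. In batch 2 their sums were 22.8 to 29.2 with ketoconazole and 21.2 to 28.2 with simvastatin, both below the 31.3 to 45.3 of vehicle. The 5 tested had a median difference between the drugs of -0.23 in batch 1 and -0.45 in batch 2 and went both ways. Cd68, a macrophage and lysosome protein, was called higher with ketoconazole in both batches (1.24 in batch 1 and 1.41 in batch 2). Clec4f, a Kupffer cell lectin, was called lower in batch 1 (-1.0 in batch 1 and -0.62 in batch 2, adjusted p = 0.0273 and 0.283), and Cd163, a macrophage scavenger receptor, in batch 2 (0.29 in batch 1 and -1.37 in batch 2, adjusted p = 0.487 and 0.0006). The 9 stellate cell probes summed to 107.7 to 115.9 CPM with ketoconazole, 149.9 to 178.2 with simvastatin and 113.6 to 171.3 with vehicle in batch 1. In batch 2 their sums were 31.8 to 35.0 with ketoconazole, 55.9 to 57.1 with simvastatin and 36.3 to 52.3 with vehicle, and 2 of 4 tested were lower with ketoconazole, Col3a1 (-0.82 in batch 1 and -1.0 in batch 2) and Rgs5 (-1.57 in batch 1 and -2.30 in batch 2). Col1a1 was at 0 in 17 and Des in 14 of the 21 wells of drugs and vehicle. None of the 7 endothelial probes passed the filter (sum 1.12 to 5.28 CPM over the 3 groups), and Stab2 was at 0 in 9 wells. In batch 1 the 7 biliary probes summed to 40.0 to 56.5 CPM with ketoconazole, above the 32.9 to 37.6 of simvastatin, with 37.7 to 46.3 for vehicle. In batch 2 they summed to 41.8 to 53.8 with ketoconazole, below the 54.4 to 63.0 of simvastatin, with 40.8 to 50.6 for vehicle. Most of these sums came from Epcam, an epithelial adhesion protein (0.29 in batch 1 and -0.31 in batch 2 between the drugs, adjusted p = 0.3 and 0.157). Of 3 biliary probes tested (median 0.98 in batch 1 and 1.37 in batch 2), Sox9 was called higher with ketoconazole (2.08 in batch 1 and 1.37 in batch 2), and both Krt7 probes were at 0 in all 21 wells. Their part in the results was not tested. The call of Rgs5 in batch 1 was lost without ketoconazole well 2 (adjusted p = 0.129). The call of Sox9 in batch 2 was lost without ketoconazole well 2 or simvastatin well 1 or 3 (adjusted p = 0.085 to 0.124).

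**Figure D3:**
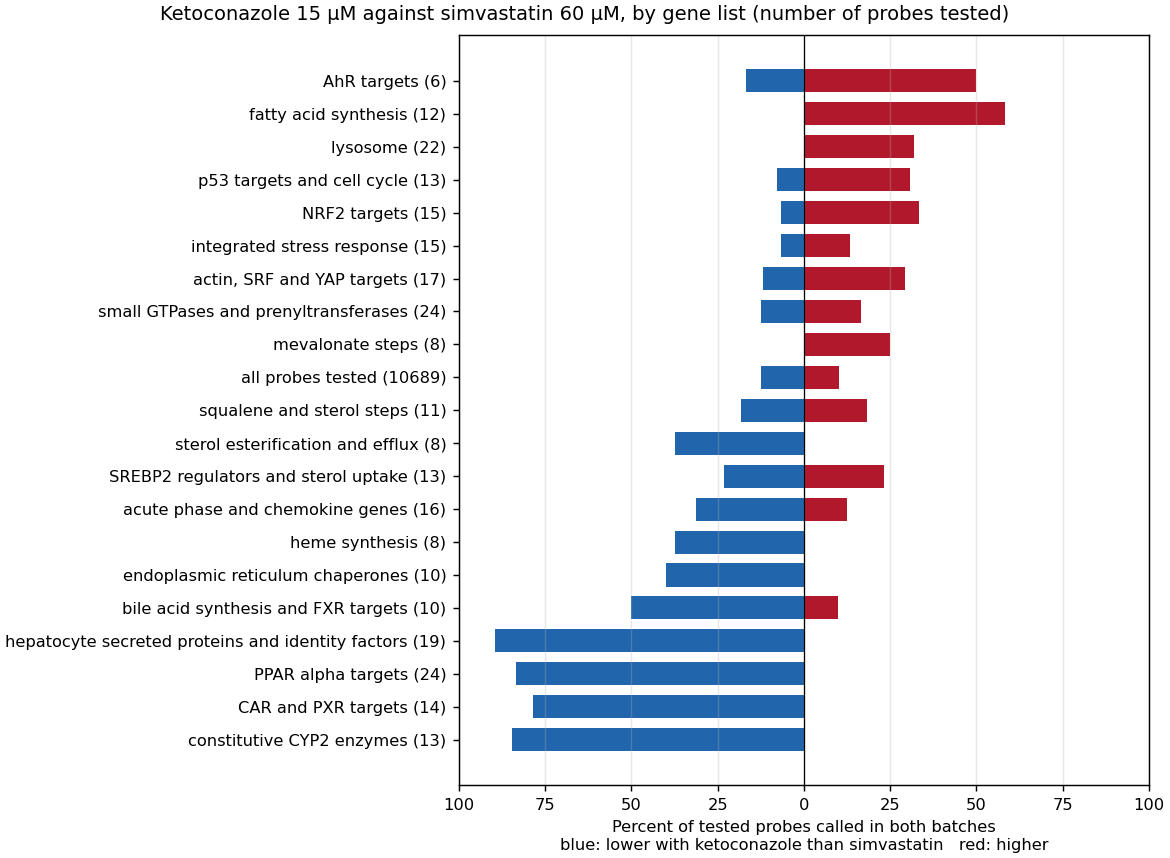
Share of each list's tested probes (horizontal axis, percent) called in both batches as higher (red, right) or lower (blue, left) with ketoconazole than with simvastatin, for lists with 6 or more tested probes, whose number stands in parentheses, and for all 10689 probes tested. The CYP2, CAR and PXR, PPAR alpha and hepatocyte lists lie to the left at 11 of 13, 11 of 14, 20 of 24 and 17 of 19 probes, against 12.3% of all probes.

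Bile acid genes were lower with ketoconazole in 5 of 10 probes and higher in 1, compared with 12.3% and 10.2% of all probes. Acox2, which shortens the bile acid side chain, differed by -3.77 ± 0.30 in batch 1 and -4.31 ± 0.27 in batch 2 (adjusted p = 2.93e-17 and 2.14e-23), and Akr1d1, the steroid reductase of the pathway, by -2.58 in batch 1 and -2.51 in batch 2. In batch 1, Akr1d1 stood at 23.6, 15.0 and 21.1 CPM with ketoconazole, 124, 119 and 115 with simvastatin and 57.7, 62.9 and 58.7 with vehicle. For Akr1d1, batch 2 gave 27.6, 23.2 and 21.6 CPM with ketoconazole, 146, 113 and 153 with simvastatin and 21.1 to 30.0 (median 25.9) with vehicle. Ketoconazole wells lay below vehicle in batch 1 and overlapped it in batch 2. The probe that was higher (1.08 in batch 1 and 1.40 in batch 2) is named Abcb4 in this table and Abcb1a in the ST table, so the transporter it counts is uncertain. Of 16 probes of acute phase and chemokine genes, 2 were higher and 5 lower, where 10.2% and 12.3% of all probes were. The share higher lies near that of all probes. Crp, an acute phase protein, differed by -2.33 ± 0.26 in batch 1 and -3.21 ± 0.23 in batch 2 (adjusted p = 2.08e-11 and 6.09e-20), having risen with simvastatin (2.91 in batch 1 and 3.51 in batch 2) and not been called with ketoconazole (0.58 in batch 1 and 0.30 in batch 2). Hp, which binds free hemoglobin, differed by -2.46 in batch 1 and -2.82 in batch 2, Cxcl10 by -1.36 in batch 1 and -2.08 in batch 2, and the chemokine Ccl20 by 3.50 in batch 1 and 1.79 in batch 2. The call of Abcb4 in batch 1 was lost without ketoconazole well 1 or 2 or simvastatin well 1 (adjusted p = 0.0899 to 0.164). The call of Ccl20 in batch 2 was lost without simvastatin well 1 or 2 (adjusted p = 0.0644 to 0.0662).

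Cytoskeletal genes were read because statins withhold isoprenoids from small GTPases. Of 17 probes for actin, SRF and YAP targets, 5 were higher with ketoconazole and 2 lower, against 10.2% and 12.3% of all probes. The share lower lies near that of all probes. Against vehicle, ketoconazole lowered 7 and raised 2 (13.6% and 11.7% of all probes), and simvastatin lowered 6 and raised 1 (3.39% and 4.18%). Tagln, an actin-bundling SRF target, fell with both drugs. In batch 1, Tagln stood at 39.9, 35.1 and 48.0 CPM with ketoconazole, 11.6, 5.97 and 7.79 with simvastatin and 95.5, 109 and 96.5 with vehicle. For Tagln, batch 2 gave 16.5, 14.8 and 16.9 CPM with ketoconazole, 2.54, 2.11 and 3.91 with simvastatin and 54.1 to 120.4 (median 86.8) with vehicle. Simvastatin wells were the lowest and vehicle wells the highest in each batch, and the drugs differed by 2.26 ± 0.32 in batch 1 and 2.5 ± 0.48 in batch 2 (adjusted p = 2.6e-08 and 1.38e-05). Tpm1, a tropomyosin, differed by 1.39 in batch 1 and 0.85 in batch 2 in the same order on 1 of its probes, the only one given. Klf2, a transcription factor known to be induced by statins, rose with simvastatin. In batch 1, Klf2 stood at 0.479, 0.666 and 0.377 CPM with ketoconazole, 8.28, 8.33 and 7.95 with simvastatin and 1.51, 1.39 and 1.30 with vehicle. For Klf2, batch 2 gave 0.593, 0.618 and 0.609 CPM with ketoconazole, 10.4, 9.02 and 6.76 with simvastatin and 0.827 to 1.91 (median 1.60) with vehicle. The drugs differed by -3.95 ± 0.48 in batch 1 and -3.81 ± 0.43 in batch 2 (adjusted p = 3.71e-10 and 5.62e-12). Klf4 was higher with ketoconazole (1.01 in batch 1 and 1.23 in batch 2). Of 24 probes for small GTPases, their partners and prenyltransferases, 4 were higher and 3 lower with ketoconazole (median 0.03 and 0.08), near the 10.2% and 12.3% of all probes. Rabggtb, a subunit of Rab prenyltransferase, was higher with ketoconazole (1.25 in batch 1 and 1.27 in batch 2), as were the small GTPase Rhoq (1.05 in batch 1 and 0.75 in batch 2) and Arhgdia, which shields small GTPases in the cytosol (0.58 in batch 1 and 0.51 in batch 2). The call of Tpm1 in batch 2 was lost without ketoconazole well 3 (adjusted p = 0.0884). Against own-plate vehicle, described below, Rhoq (0.64) and Tpm1 (0.77) were not called in batch 2 (adjusted p = 0.0519 and 0.0821).

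Some lysosomal genes were higher with ketoconazole. Of 22 probes, 7 were higher with ketoconazole than with simvastatin and 0 lower (median 0.59 and 0.36), compared with 10.2% and 12.3% of all probes. Against vehicle ketoconazole raised 10 and lowered 0, and simvastatin raised 0 and lowered 1. Gpnmb, a lysosomal membrane glycoprotein, differed by 3.04 ± 0.23 in batch 1 and 3.15 ± 0.23 in batch 2 (adjusted p = 2.08e-18 and 4.29e-20). In batch 1, Gpnmb stood at 139.8, 173 and 164 CPM with ketoconazole, 21.2, 17.8 and 18.9 with simvastatin and 18.1, 25.6 and 21.9 with vehicle. For Gpnmb, batch 2 gave 221, 180.1 and 232 CPM with ketoconazole, 18.9, 24.5 and 27.9 with simvastatin and 32.0 to 51.6 (median 42.4) with vehicle. Ketoconazole wells were the highest in both batches, and simvastatin wells lay below vehicle in batch 2. The proteases Ctsl and Ctsb differed by 1.18 in batch 1 and 1.33 in batch 2 and by 1.31 in batch 1 and 0.96 in batch 2, and the sialidase Neu1 by 1.00 in batch 1 and 1.29 in batch 2 on 1 of its probes.

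Stress genes were mixed, and their counts stand against 10.2% of all probes called higher and 12.3% called lower in both batches. Of 15 NRF2 targets, 5 were higher with ketoconazole and 1 lower, with Nqo1, a quinone reductase, differing by 1.58 in batch 1 and 1.76 in batch 2. Ephx1, an epoxide hydrolase that also answers CAR, was the lower member (-1.77 in batch 1 and -1.21 in batch 2). Of 6 AhR targets, 3 were higher and 1 lower, Tiparp at 1.84 in batch 1 and 1.57 in batch 2 and Aldh3a1 at -2.89 in batch 1 and -4.23 in batch 2. The others higher were Nqo1, a member of both lists, and Cyp1b1, at a mean of 10.4 counts. Against own-plate vehicle in batch 2, 2 of the 6 were higher and 1 lower, and Cyp1b1 was not called (2.04, adjusted p = 0.378). Ddit3, the stress factor CHOP, was higher with ketoconazole by 1.66 ± 0.14 in batch 1 and 2.32 ± 0.17 in batch 2 (adjusted p = 7.48e-16 and 6.58e-20). It was 1 of 2 higher among 15 probes of the integrated stress response, with Sesn2 (0.60 in batch 1 and 1.04 in batch 2) the other and Cth, which makes cysteine, lower (-1.72 in batch 1 and -1.47 in batch 2). These counts lie near those shares, while the medians of the 15 were -0.08 in batch 1 and 0.56 in batch 2, and the difference of the drugs itself differed between the batches for 4 of them, compared with 2.05% of all probes. Against own-plate vehicle in batch 2, described below, 7 of the 15 were higher and 1 lower, where 1690 and 1753 of the 10689 probes were. Of 10 probes for endoplasmic reticulum chaperones and their regulators, 4 were lower with ketoconazole and 0 higher, among them Xbp1 (-2.11 in batch 1 and -1.16 in batch 2) and Hsp90b1 (-0.84 in batch 1 and -1.04 in batch 2). Of 13 p53 and cell cycle probes, 4 were higher, including Bax (0.62 in batch 1 and 1.23 in batch 2) and Phlda3 (0.76 in batch 1 and 1.30 in batch 2), and 1 lower, the growth suppressor Btg2 (-0.87 in batch 1 and -1.05 in batch 2). Ccng1 was also higher (1.99 in batch 1 and 2.74 in batch 2), but its vehicle wells of batch 2 split by plate, at 82.8, 95.2 and 105 CPM on the plate of simvastatin and 23.3, 25.4 and 31.5 on that of ketoconazole. By ST, the surrogate assay on the same lysates, these wells did not split, at 773, 894 and 865 CPM of the ST counts on the first plate and 819, 842 and 1033 on the second, and the drugs differed by 1.12 in batch 1 and 1.94 in batch 2. The call of Sesn2 in batch 1 was lost without ketoconazole well 2 (adjusted p = 0.248).

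Over all probes with a mean of at least 50 counts in the 12 wells, the 10 with the largest lower differences were led by Aox3, aldehyde oxidase, with -7.05 in batch 1 and -6.62 in batch 2. In batch 1, Aox3 stood at 0.479, 0 and 0.377 CPM with ketoconazole, 53.4, 34.3 and 33.2 with simvastatin and 15.5, 17.1 and 13.2 with vehicle. For Aox3, batch 2 gave 0.711, 0.371 and 0.244 CPM with ketoconazole, 34.9, 58.9 and 42.5 with simvastatin and 4.84 to 9.09 (median 6.65) with vehicle. The rest were the Cyp4a1, Cyp4a2, Cyp2b2, Cyp3a2 and Fabp1 probes above, a second Cyp3a probe, Cyp3a23.3a1 (-4.77 in batch 1 and -5.37 in batch 2), Fer1l5 (-5.70 in batch 1 and -5.19 in batch 2) and Sult2a2, a bile acid sulfotransferase (-4.97 in batch 1 and -5.05 in batch 2). The 10 largest higher differences were Il1r2, a decoy receptor of interleukin 1, Hamp, the iron hormone hepcidin, Gpnmb, Dnase2b, Slc1a5, Sfn, Gcat, Lgals3, Sat2 and Arhgap22. In batch 1, Il1r2 stood at 35.5, 46.3 and 35.2 CPM with ketoconazole, 1.84, 1.10 and 0.467 with simvastatin and 1.16, 0.697 and 1.95 with vehicle. For Il1r2, batch 2 gave 47.3, 89.5 and 59.0 CPM with ketoconazole, 5.64, 5.64 and 5.41 with simvastatin and 4.55 to 9.84 (median 6.0) with vehicle. Il1r2 differed by 5.04 ± 0.38 in batch 1 and 3.55 ± 0.32 in batch 2 (adjusted p = 2.69e-18 and 2.16e-15) and was not called between simvastatin and vehicle. In batch 1, Hamp stood at 20.0, 37.8 and 26.9 CPM with ketoconazole, 1.58, 1.10 and 1.71 with simvastatin and 2.09, 1.04 and 3.09 with vehicle. For Hamp, batch 2 gave 30.0, 24.1 and 21.7 CPM with ketoconazole, 2.26, 2.11 and 3.00 with simvastatin and 0.88 to 3.00 (median 2.48) with vehicle. Hamp differed by 4.24 ± 0.37 in batch 1 and 3.36 ± 0.39 in batch 2 (adjusted p = 1.97e-15 and 2.27e-11). Slc1a5, a glutamine transporter, gave 2.84 in batch 1 and 3.11 in batch 2, and Lgals3, galectin 3, 2.99 in batch 1 and 2.37 in batch 2. These 20 were chosen for their size in this contrast, so their values are a description.

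Since the drugs lay on different plates, the changes of batch 2 were also taken from the 3 vehicle wells of each plate, so that the drugs shared no control. Between the vehicle wells of the plates, edgeR called 0 of 10689 probes at an adjusted p under 0.05, and 1468 had an unadjusted p under 0.05. That is more than the share of 0.05 expected were the plates alike. With 3 wells a side, the lack of calls does not show that the plates are alike. The difference of the own-plate changes was called for 3443 probes (32.2%), with 1690 higher and 1753 lower for ketoconazole. Of the 2412 probes called in both batches in the direct comparison, 2000 were also called here with the same sign (870 higher and 1130 lower). Ketoconazole changed 4463 probes and simvastatin 1871 against own-plate vehicle, and 1073 were in both sets, which is 24% of the first and 57.3% of the second. Of the 1073, 612 moved the same way (235 up and 377 down) and 461 opposite ways, 310 of them down with ketoconazole and up with simvastatin. Among the 19 cholesterol synthesis probes, 16 rose with both drugs.

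**Figure D4:**
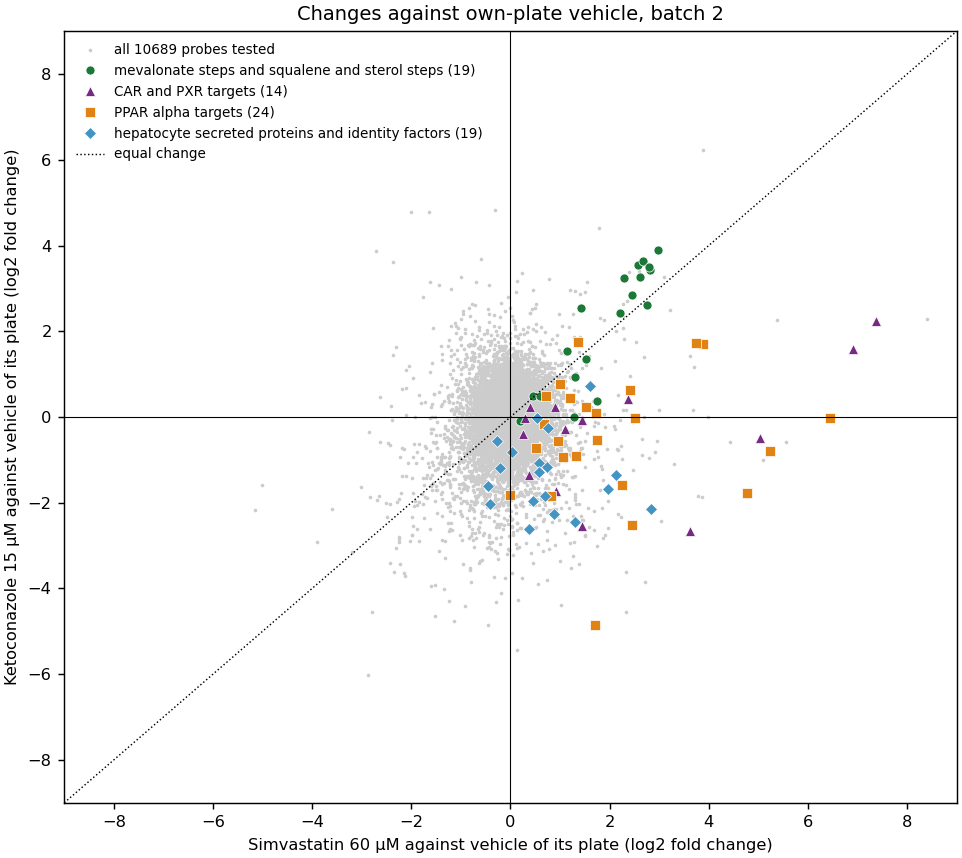
L2FC against own-plate vehicle in batch 2, simvastatin on the horizontal and ketoconazole on the vertical axis, for all 10689 probes tested (grey) and 4 sets of genes. Of the 19 cholesterol synthesis genes (green circles), 16 rose with both drugs. Of the PPAR alpha targets (orange squares), 18 of 24, and of the CAR and PXR targets (purple triangles), 11 of 14 were called below the dotted line of equal change. Of all 10689 probes, 1753 were called below it.

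With own-plate vehicle, Insig1 differed by 1.41 ± 0.24 (adjusted p = 2.72e-06), Fdps by 0.98 (adjusted p = 0.018), Sqle by 1.11 (adjusted p = 0.00298) and Erg28 by -1.29 (adjusted p = 1.69e-05). Lss (0.39) and Nsdhl (-0.11) were no longer called (adjusted p = 0.308 and 0.566). The same held for Mvd (0.69), Hsd17b7 (0.95), Elovl6 (0.98), Cyp1b1 (2.04), Rhoq (0.64), Tpm1 (0.77), Ccl20 (1.46) and Sox9 (1.53), with adjusted p = 0.0519 to 0.392. Insig2 (-2.28), Cyp3a2 (-5.33), Cyp4a1 (-6.56) and Fabp1 (-4.98) were called with the sign of the direct comparison. Ccng1, whose vehicle wells differed between the plates in WT and not in ST, moved from 2.74 to 4.57.

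Between the batches, which differ in rat, library preparation and sequencing run together, the difference of the drugs itself differed for 219 probes (2.05%). The surrogate (ST) assay, a smaller probe set run on the same lysates, called 15.8% of its 1781 tested probes higher and 17.3% lower with ketoconazole in both batches. Of 1481 probes tested in both assays, 508 were called in both batches by WT, and ST called 378 of them with the same sign and 0 with the opposite one. By ST, Cyp51 was called in both batches (0.57 and 1.12), as was Msmo1 (0.47 and 0.92). Cyp3a2 gave -4.26 and -5.06. Fabp1 departed from WT, with -5.88 in batch 1 and -0.82 in batch 2, where it was not called (adjusted p = 0.0851) and ketoconazole wells stood at 5.04, 5.56 and 9.89 CPM of the ST counts, with 13.5, 8.15 and 13.9 for simvastatin and 0 to 7.94 (median 1.70) for vehicle. The fall of Fabp1 below vehicle with ketoconazole in batch 2 by WT was thus not seen by ST, where the ketoconazole wells overlapped vehicle and had the higher median. Cyp4a1, below all vehicle wells with ketoconazole by WT, stood in batch 2 by ST at 7.56, 10.5 and 7.26 CPM with ketoconazole and at 5.05 to 10.6 (median 6.96) with vehicle, so that these wells overlapped too. In batch 1, ketoconazole wells of both genes lay below vehicle by ST, at 0 to 0.561 against 4.66 to 10.1 CPM for Fabp1 and 0.561 to 1.32 against 9.28 to 14.1 CPM for Cyp4a1. Other genes called in both batches by WT also lost a call by ST. Col3a1 was called in neither batch (adjusted p = 0.0505 and 0.174). In batch 1, Sqle (0.34), Srebf1 (0.19), Nr1h3 (-0.25), Sesn2 (0.37) and Btg2 (-0.53) were not called (adjusted p = 0.105 to 0.57), nor in batch 2 were Nsdhl (-0.22) and Elovl6 (0.43) (adjusted p = 0.06 and 0.426).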

How the data were processed

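TempO-Seq was run with a whole-transcriptome (WT) and a smaller surrogate (ST) probe set on the same lysates. The authors aligned reads to the rn6 genome with STAR 2.5.3a and deposited raw counts per probe and well. Wells were grouped by labelled chemical, concentration and batch. Probes with a mean of at least 10 counts over all wells of an assay were kept (10689 of 22253 WT and 1781 of 2654 ST probes). Each batch was fitted by itself with all its groups in edgeR 4.0.16 (R 4.3.3; TMM, quasi-likelihood test), and p-values were Benjamini-Hochberg adjusted over all probes tested and called under 0.05. The SE of a log2 fold change was its size over the root of F, and 95% confidence intervals used the t quantile with 60 (batch 1) or 66 (batch 2) residual degrees of freedom. Own-plate changes and the batch difference were contrasts of like fits.

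Named genes were all tested members of the sterol lists, up to 4 called members of every other list by mean log2 fold change, and the 10 largest changes in each direction among probes with a mean of at least 50 counts. Fabp1 falls under the last of these. Names outside the rule are markers at 0 counts, regulators that were not tested, and Clec4f, Cd163 and Epcam, which were chosen after their values were seen. The members and the 24 lists were chosen with earlier results of these data known. For 60 WT probes the symbol came from the ST table by probe number. Promoters were read from RefSeq for GRCr8. The fit was tested on simulated data with known changes. Alternatives were RLE scaling, no filter, DESeq2 1.42.0, the compared wells alone, probes summed by symbol, a fold minimum, other plate controls, and wells left out in turn, of which the vehicle wells were added after seeing the data. Some named members are not reported here, though list counts include them. No well had counts identical to another.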

Additional observations from a re-analysis of the deposited data

Results flagged for a closer look

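In batch 2, which has 6 vehicle wells, 107 named probes were tested for a vehicle well standing apart from the other 5 by Dixon's criterion, and 6 did so, where chance alone flags about 1 in 20 groups. The lowest vehicle well of Fdft1 was at 37.4 CPM with the nearest at 47.1, and that of Ddit3 was at 21.5 with the nearest at 27. The highest vehicle well was at 3.43 CPM for Slc10a1 (nearest 2.57), 647 for Bax (nearest 577), 83.5 for Dnase2b (nearest 64.4) and 5.85 for Slc1a5 (nearest 3.37).

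The difference between ketoconazole and simvastatin itself differed between the batches, by edgeR's quasi-likelihood test of batch 1 minus batch 2, for 2 of the 107 named probes. Fasn differed by -0.9 on the log2 scale (0.63 in batch 1 and 1.55 in batch 2, adjusted p = 0.00131). Gstp1, a glutathione transferase, differed by -1.32 (0.87 and 2.2, adjusted p = 0.0064). Both kept their direction in both batches, with 3 wells a side in each.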

How the results depend on the processing

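No paired analysis was possible because the labels number no replicates, and the numbers used here follow accession order. Requiring a log2 fold change of at least 1 besides the adjusted p left 1130 probes between the drugs in batch 1, 1356 in batch 2 and 760 in both (247 by ST), with 1136 and 1448 for ketoconazole and 558 and 433 for simvastatin against vehicle in batches 1 and 2. With both batches in 1 fit and batch as a term, 4889 probes were called, a rule that asks for 1 test in place of 2. With ketoconazole 0.6 µM of the same plate as its control in batch 1, 2079 were called between the drugs. Acat2 turned to -0.10 and Sqle to -0.046, neither called. This contrast subtracts the change of the 0.6 µM wells from vehicle, which was 0.50 for Acat2 and 0.62 for Sqle. In that change the drug and the plate cannot be told apart. Without a filter, 134 probes differed between batches, and the cause was not tested. The count called in both batches was 2402 with RLE, 2101 without a filter, 2435 with DESeq2, 2885 with the compared wells alone and 2318 with probes summed by symbol. Among the genes described, Acat2 lost its call in batch 1 with RLE (adjusted p = 0.0516) and without a filter (0.0751). Without a filter, Lss (0.113) and Abcb4 (0.0524) in batch 1 and Hsd17b7 (0.0548) and Cpox (0.0516) in batch 2 lost theirs too, and Elovl6 in batch 2 did with DESeq2 (0.0539). With the compared wells alone, 7 gained a call. They were Hmgcs1 (0.0138), Msmo1 (0.00492), Scap (0.0319), Srebf2 (0.033), Npc1 (0.0239) and Tmem97 (0.0091) in batch 1 and Cyp51 (0.0128) in batch 2. DESeq2 also called Msmo1 in batch 1 (0.0448).

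Leaving out wells 1 at a time gave 2757 to 3093 calls between the drugs in batch 1, 3456 to 3905 in batch 2 and 2094 to 2347 in both. Against vehicle it gave 2704 to 3131 and 4173 to 4802 for ketoconazole and 985 to 1254 and 1165 to 1722 for simvastatin in batches 1 and 2, and 2841 to 3511 for the own-plate difference. Over the named probes and both batches, 1306 values kept their direction and side of the threshold with a well left out, 60 lost and 2 gained a call.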
